A study of Mus musculus with 12 samples.

Results

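Expression of 10 genes that make NAD, spend it or divert its precursor was measured in mouse liver: Nampt, Nmnat1, Nmnat3, Nadsyn1, Naprt, Qprt, Nnmt, Sirt1, Sirt3 and Sirt5. They were found by their gene symbols, and all 10 are present among the 48795 genes of the count table. All 10 passed the filter on low counts, which kept 13812 genes. RNA came from whole livers of 12 female mice aged 4 months on normal chow. There were 4 groups of 3 mice. Mice 254, 257 and 323 were fed Nts+/+ mice, while 265, 282 and 322 were of the same genotype and had fasted for 22 h. Mice 277, 303 and 319 were fed and labelled Nts-/-, and 284, 290 and 295 carried this label and had fasted for the same time. Nts encodes neurotensin, a gut peptide, and Nts-/- mice lack it in the whole body, so the liver is not the only organ concerned. Wild-type and knockout mice were littermates of the same age and sex, and fed mice ate freely.

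Counts of the targeted gene separated by genotype label, but were higher in the libraries labelled Nts-/-. Nts had 0 counts in all 6 libraries labelled Nts+/+, which allows up to 3 counts in each, or between 0.0833 and 0.136 CPM. It had 46, 40 and 15 counts in the fed libraries labelled Nts-/- and 12, 4 and 18 in the fasted ones. Counts on the locus are therefore higher in the libraries labelled knockout, and every genotype difference below is one between libraries by their labels. The paper names the nervous system and N cells of the small intestine as sites of neurotensin. It also names lymphatic endothelial cells of adipose tissue as a source of neurotensin reaching the liver. Where the Nts counts in these livers come from was not tested. Depth was between 21999647 and 45273069 counts per mouse. No 2 libraries held identical values, and each of the 12 libraries was closest to another of its own feeding state.

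NAD carries electrons in metabolism and is also consumed as a substrate. Liver makes it from tryptophan through quinolinic acid, which Qprt converts to nicotinic acid mononucleotide, from nicotinic acid through Naprt, and from nicotinamide through Nampt, the rate-limiting enzyme of salvage. Nmnat1 in the nucleus and Nmnat3 in mitochondria join the mononucleotides to an adenylate group, and Nadsyn1 amidates the product of the acid routes to NAD. Sirtuins spend NAD to remove acyl groups from proteins: Sirt1 mainly in the nucleus, Sirt3 and Sirt5 in mitochondria. Nnmt methylates nicotinamide with S-adenosylmethionine and so removes it from salvage.

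Promoters of the genes were read from RefSeq on GRCm38.p6, as 250 bases before and 50 after each start site. There was an entry for 8 of the 10 genes, with 10 promoters in all, and none for Naprt and Nnmt. The promoters of Qprt, which fell with fasting, and of Tdo2, the tryptophan dioxygenase at the head of the same pathway, which rose, are shown because these genes moved in opposite directions. Those of Nampt and Sirt1, which did not pass any test, are shown for contrast in base composition. Each reads 5′ to 3′ along the gene's strand, with CG dinucleotides in capitals.
Qprt, chr7:127121980-127122279, minus strand: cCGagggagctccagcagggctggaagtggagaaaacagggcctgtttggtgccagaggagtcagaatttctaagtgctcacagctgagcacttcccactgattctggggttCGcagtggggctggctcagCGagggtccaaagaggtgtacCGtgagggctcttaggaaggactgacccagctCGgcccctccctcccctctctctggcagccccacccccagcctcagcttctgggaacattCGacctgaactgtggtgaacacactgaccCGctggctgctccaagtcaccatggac
Tdo2, chr3:81975679-81975978, minus strand: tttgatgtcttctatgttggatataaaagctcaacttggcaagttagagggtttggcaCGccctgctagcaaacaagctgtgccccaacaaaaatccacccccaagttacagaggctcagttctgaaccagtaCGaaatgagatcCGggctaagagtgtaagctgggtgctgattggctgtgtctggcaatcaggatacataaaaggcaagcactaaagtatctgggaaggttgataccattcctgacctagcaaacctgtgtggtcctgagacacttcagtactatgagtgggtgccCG
Nampt, chr12:32820085-32820384, plus strand: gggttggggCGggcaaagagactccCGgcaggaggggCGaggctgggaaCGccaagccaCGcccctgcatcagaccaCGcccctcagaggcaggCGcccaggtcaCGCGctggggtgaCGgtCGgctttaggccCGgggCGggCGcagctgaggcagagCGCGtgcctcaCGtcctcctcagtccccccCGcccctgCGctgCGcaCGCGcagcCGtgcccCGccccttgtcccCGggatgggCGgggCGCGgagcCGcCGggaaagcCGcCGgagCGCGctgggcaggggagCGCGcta
Sirt1, chr10:63338986-63339285, minus strand: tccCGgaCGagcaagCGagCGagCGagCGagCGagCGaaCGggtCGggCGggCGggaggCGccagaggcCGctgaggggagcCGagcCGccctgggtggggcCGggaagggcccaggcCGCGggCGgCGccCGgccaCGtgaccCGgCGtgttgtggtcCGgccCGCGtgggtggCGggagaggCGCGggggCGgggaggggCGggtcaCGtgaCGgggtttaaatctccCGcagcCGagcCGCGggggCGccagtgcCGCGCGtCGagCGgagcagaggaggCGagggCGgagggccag

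The Qprt window held 7 CG dinucleotides, the same as the median of 7 over all 32851 promoters, and the Tdo2 window held 4. Nampt held 36 and Sirt1 47, with a GC content of 76.3% and 79%, against a median of 52.7% over all promoters. These were the highest CG counts among the member promoters. Those of the other members apart from Qprt held 13 (Nmnat3) to 28 (Nmnat1). A link between base composition and the response to fasting was not tested. A search on both strands for the E-box CACGTG, the D-box TTATGTAA, the cAMP response element TGACGTCA and the forkhead site TGTTTAC found matches in 1 of the promoters shown above. Sirt1 held the E-box at 2 places, starting 115 and 43 bases before the start, both visible above as cacgtg with CG in capitals. The E-box was found in 7.15% of all promoters, the D-box in 0.938%, the cAMP response element in 1.79% and the forkhead site in 3.65%.

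On a scale per transcript length (TPM, counts per kb scaled to the same sum in every library, with the longest transcript of each gene as its length), the 10 genes covered a wide range. Over the 12 mice, the median was 170 TPM for Nnmt, 133 for Naprt, 95.4 for Qprt, 38.9 for Sirt3, 31.2 for Nampt, 10.6 for Nmnat1, 9.29 for Nadsyn1, 7.21 for Sirt5, 5.69 for Sirt1 and 3.6 for Nmnat3. In the 6 fed mice, Naprt (108 to 179 TPM), Qprt (107 to 143 TPM) and Nnmt (82.3 to 140 TPM) overlapped. In the 6 fasted mice they did not: Nnmt lay between 200 and 346 TPM, Naprt between 98.1 and 160 TPM, and Qprt between 53.7 and 83.5 TPM. The order Nnmt, Naprt, Qprt held in 6 of 6 fasted mice and in 0 of 6 fed mice. For Naprt and Qprt this depends on the lengths used. On the CPM scale used below, without length, their fasted ranges overlapped (79 to 129 and 80.4 to 129). Nampt and Sirt3 overlapped in both states. Among the low genes, the fasted ranges of Sirt5 (5.97 to 8.98 TPM), Sirt1 (4.8 to 5.8 TPM) and Nmnat3 (3.23 to 3.6 TPM) were apart, while that of Nadsyn1 overlapped those of Nmnat1 and Sirt5.

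**Figure D1:**
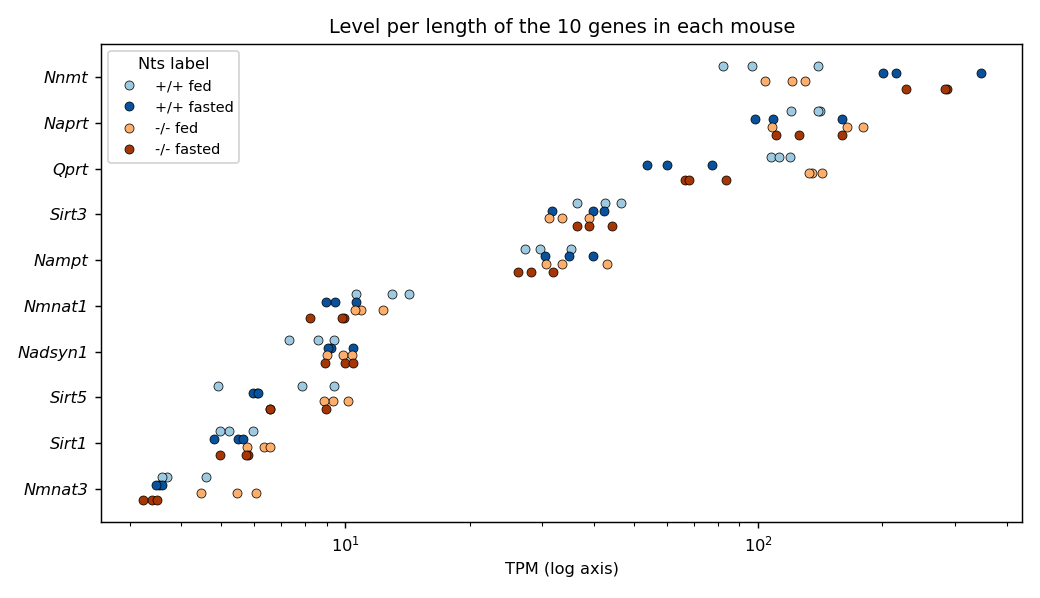
Level per transcript length (TPM, log axis) of the 10 genes in each of the 12 mice, with a point for each mouse coloured by group. On this scale Nnmt, Naprt and Qprt overlap in fed mice and separate in fasted mice, with Nnmt highest (200 to 346 TPM) and Qprt lowest (53.7 to 83.5 TPM). Without scaling by length, Naprt and Qprt overlap in fasted mice too.

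Fasting raised Nnmt and lowered Qprt in both genotypes, and these were the largest changes among the 10 genes. Over both genotypes, with 6 mice fasted against 6 fed, Nnmt was 2.53-fold higher and Qprt fell to 0.594 of its fed level. In bulk liver, fewer cells of a type and less RNA per cell cannot be told apart. At an adjusted p under 0.05, 2 of the 10 genes passed, 1 higher and 1 lower, while 32.8% of all tested genes passed in this comparison. In Nts+/+ livers the same 2 passed, with 18.1% of all tested genes passing, and in livers labelled Nts-/- these and Sirt3 passed, with 16.8% of tested genes passing. The share of members is thus no higher than that of all genes over both genotypes. The median log2 fold change was -0.01 for the 10 genes and also -0.01 for all tested genes.

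Nnmt (GRCm38 chr9:48591877-48605153) is the methyltransferase of nicotinamide. Its level in Nts+/+ livers was 85.1, 71.2 and 112 TMM-normalized CPM (counts scaled by library size and by the trimmed mean of M-values) in fed mice 254, 257 and 323, and 314, 190 and 164 in fasted mice 265, 282 and 322. In livers labelled Nts-/- it was 76.3, 95.3 and 111 in fed mice 277, 303 and 319, and 269, 254 and 207 in fasted mice 284, 290 and 295. Every fasted mouse lay above every fed mouse, and Nts+/+ fasted mouse 265 was the highest. The means were 89.6 ± 21.0 fed and 222 ± 80.2 fasted in Nts+/+, and 94.2 ± 17.5 fed and 243 ± 32.2 fasted in Nts-/- (SD, n = 3). The log2 fold change was 1.31 (SE 0.24, adjusted p = 0.00334, edgeR) in Nts+/+ and 1.37 (SE 0.24, adjusted p = 0.00252, edgeR) in Nts-/-. Over both genotypes it was 1.34, with a 95% interval of 0.97 to 1.71 and an adjusted p of 9.84e-05 (edgeR).

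Qprt (chr7:127107114-127122226) takes quinolinic acid into NAD synthesis. In Nts+/+ livers it stood at 178, 157 and 153 TMM-normalized CPM when fed and at 119, 80.4 and 83.3 when fasted, with mice in the order given above. In those labelled Nts-/- it stood at 169, 178 and 208 when fed and at 106, 104 and 129 when fasted. The lowest fed mouse (153) lay above the highest fasted mouse (129). Group means were 163 ± 13.3 and 94.2 ± 21.4 in Nts+/+, and 185 ± 20.6 and 113 ± 13.8 in Nts-/- (SD, n = 3), fed and fasted in turn. Qprt fell by 0.79 on the log2 scale in Nts+/+ (SE 0.16, adjusted p = 0.00495, edgeR) and by 0.71 in Nts-/- (SE 0.16, adjusted p = 0.00891, edgeR). Over both genotypes the change was -0.75 (95% interval -0.997 to -0.508, adjusted p = 0.00026, edgeR). Nnmt and Qprt are also the 2 of 10 genes whose 6 fed and 6 fasted mice did not overlap, and 15.9% of all tested genes, 2193 in number, were separated in this way.

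**Figure D2:**
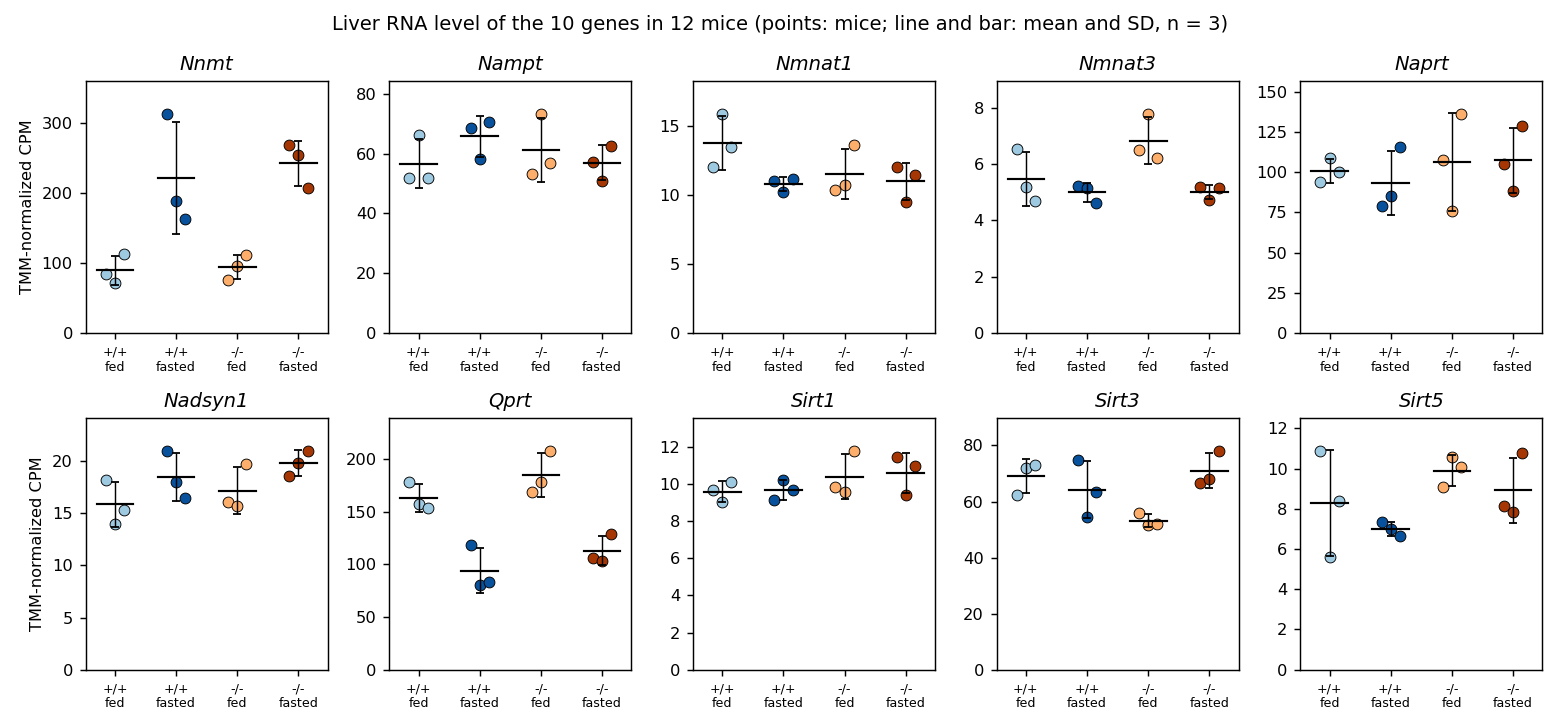
TMM-normalized CPM of each of the 10 genes in each of the 12 mice, in a panel per gene, with a point for each mouse, a bar at the group mean and an error bar of 1 SD (n = 3). The fed and fasted points separate for Nnmt (up to 112 fed, from 164 fasted) and Qprt (from 153 fed, up to 129 fasted), and overlap for the other genes.

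The 3 enzymes that use nicotinamide or nicotinic acid, or that finish the acid route, did not pass in any comparison. Nampt (chr12:32820335-32853369) was at 51.9, 66.1 and 51.7 TMM-normalized CPM in fed and 68.5, 58.1 and 70.7 in fasted Nts+/+ livers, and at 53.3, 73.3 and 56.8 in fed and 57.3, 50.9 and 62.6 in fasted livers labelled Nts-/-. The fed and fasted mice overlapped throughout. Its log2 fold change with fasting was 0.22 in Nts+/+ and -0.10 in Nts-/-, and over both it was 0.06 with a 95% interval of -0.17 to 0.28 (adjusted p = 0.718, edgeR). An overlapping gene, Gdap10, had a mean of 5 counts, against at least 1167 for Nampt. Naprt (chr15:75890964-75894481) varied more among mice of a group than any of the 10 except Nnmt. Its fed mice lay between 75.7 and 136 TMM-normalized CPM (median 104) and its fasted mice between 79.0 and 129 (median 96.5), and the change was -0.05 (95% interval -0.37 to 0.27, adjusted p = 0.827, edgeR). Nadsyn1 (chr7:143795584-143822849) lay between 14.0 and 19.7 fed (median 15.9) and between 16.4 and 21.0 fasted (median 19.2), a change of 0.21 (95% interval -0.0034 to 0.43, adjusted p = 0.123, edgeR).

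Nmnat1 and Nmnat3 had lower fasted than fed means, without passing the test. Nmnat1 (chr4:149467572-149485202) was at 12.0, 15.8 and 13.4 TMM-normalized CPM in fed and 11.0, 10.2 and 11.2 in fasted Nts+/+ livers. In livers labelled Nts-/- it was at 10.3, 10.7 and 13.6 fed and 12.0, 9.48 and 11.4 fasted. The 3 fasted Nts+/+ mice lay below the 3 fed ones, whereas the mice labelled Nts-/- overlapped. The change was -0.35 in Nts+/+ (95% interval -0.68 to -0.02, adjusted p = 0.128, edgeR), -0.07 in Nts-/- (adjusted p = 0.801, edgeR) and -0.21 over both (95% interval -0.44 to 0.02, adjusted p = 0.156, edgeR). Nmnat3 (chr9:98287435-98420438), the lowest of the 10 per length, was at 6.53, 5.19 and 4.70 in fed and 5.22, 5.15 and 4.61 in fasted Nts+/+ livers, and at 6.51, 7.78 and 6.20 in fed and 5.17, 4.72 and 5.15 in fasted livers labelled Nts-/-. Here the 2 states overlapped in Nts+/+ and were apart in Nts-/-. Its change was -0.14 in Nts+/+ (adjusted p = 0.615, edgeR), -0.44 in Nts-/- (95% interval -0.80 to -0.09, adjusted p = 0.0821, edgeR) and -0.29 over both (95% interval -0.54 to -0.04, adjusted p = 0.0747, edgeR). Without Nts+/+ fed mouse 323 the change over both genotypes was -0.34 and its adjusted p 0.0468.

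Among the 3 sirtuins, Sirt3 passed with fasting in livers labelled Nts-/- and did not pass in Nts+/+ livers, and the difference between these responses did not pass. Sirt3 (chr7:140863666-140882309), the main deacetylase of mitochondria, was at 62.3, 71.8 and 73.1 TMM-normalized CPM in fed and 74.7, 54.4 and 63.6 in fasted Nts+/+ livers. In livers labelled Nts-/- it was at 55.9, 51.5 and 52.0 fed and 66.7, 68.0 and 78.2 fasted. The 3 fed mice labelled Nts-/- were below all 3 fed Nts+/+ mice and below all 3 fasted mice labelled Nts-/-. Means were 69.1 ± 5.90 and 64.2 ± 10.2 in Nts+/+ and 53.1 ± 2.37 and 71.0 ± 6.27 in Nts-/- (SD, n = 3), fed and fasted in turn. Fasting changed it by 0.42 on the log2 scale in Nts-/- (SE 0.13, adjusted p = 0.0408, edgeR) and by -0.11 in Nts+/+ (SE 0.13, adjusted p = 0.613, edgeR). The difference between these 2 responses was 0.52 (95% interval 0.13 to 0.92) (adjusted p = 0.897, edgeR). The call in Nts-/- was lost in all 6 fits that each left out 1 of these mice, with adjusted p between 0.067 (without fasted mouse 284) and 0.134 (without fasted mouse 295), and 0.107, 0.0798, 0.0718 and 0.0759 without mice 303, 277, 319 and 290. It was also lost with no count filter (adjusted p = 0.0629).

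The region of Sirt3 overlaps those of Ric8a and Psmd13, and strand use in counting is not given in the sources used here, so reads in shared parts cannot be assigned with certainty. Psmd13, a proteasome subunit with a mean of 1994 counts, rose with fasting by 0.64 on the log2 scale in livers labelled Nts-/- (SE 0.15, adjusted p = 0.0102, edgeR), and in Nts+/+ its change was 0.44 (adjusted p = 0.0538, edgeR). Ric8a had a mean of 639 counts and a change of 0.33 in Nts-/- (adjusted p = 0.166, edgeR). In fed livers, where Sirt3 differed by -0.38 between genotype labels, Psmd13 differed by -0.14 and Ric8a by 0.08. The part of these genes in the Sirt3 values was not tested.

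The levels of Sirt1 and Sirt5 did not pass in any comparison. Sirt1 (chr10:63319005-63381704), a nuclear deacetylase that acts on regulators of fasting metabolism, was the steadiest of the 10, with a mean coefficient of variation within groups of 8.27%, against 22.8% for Nnmt. Its fed mice lay between 9.01 and 11.8 TMM-normalized CPM (median 9.75) and its fasted mice between 9.15 and 11.4 (median 9.96). The change was 0.02 with a 95% interval of -0.18 to 0.23 (adjusted p = 0.882, edgeR), which leaves room for a rise of that size. Sirt5 (chr13:43370710-43395202), which removes succinyl and malonyl groups, was between 5.63 and 10.9 fed (median 9.57) and between 6.64 and 10.8 fasted (median 7.59), a change of -0.20 (95% interval -0.51 to 0.12, adjusted p = 0.333, edgeR). In the fed Nts+/+ group, Sirt5 ranged from 5.63 in mouse 257 to 10.9 in mouse 254, the widest spread of any of its groups.

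**Figure D3:**
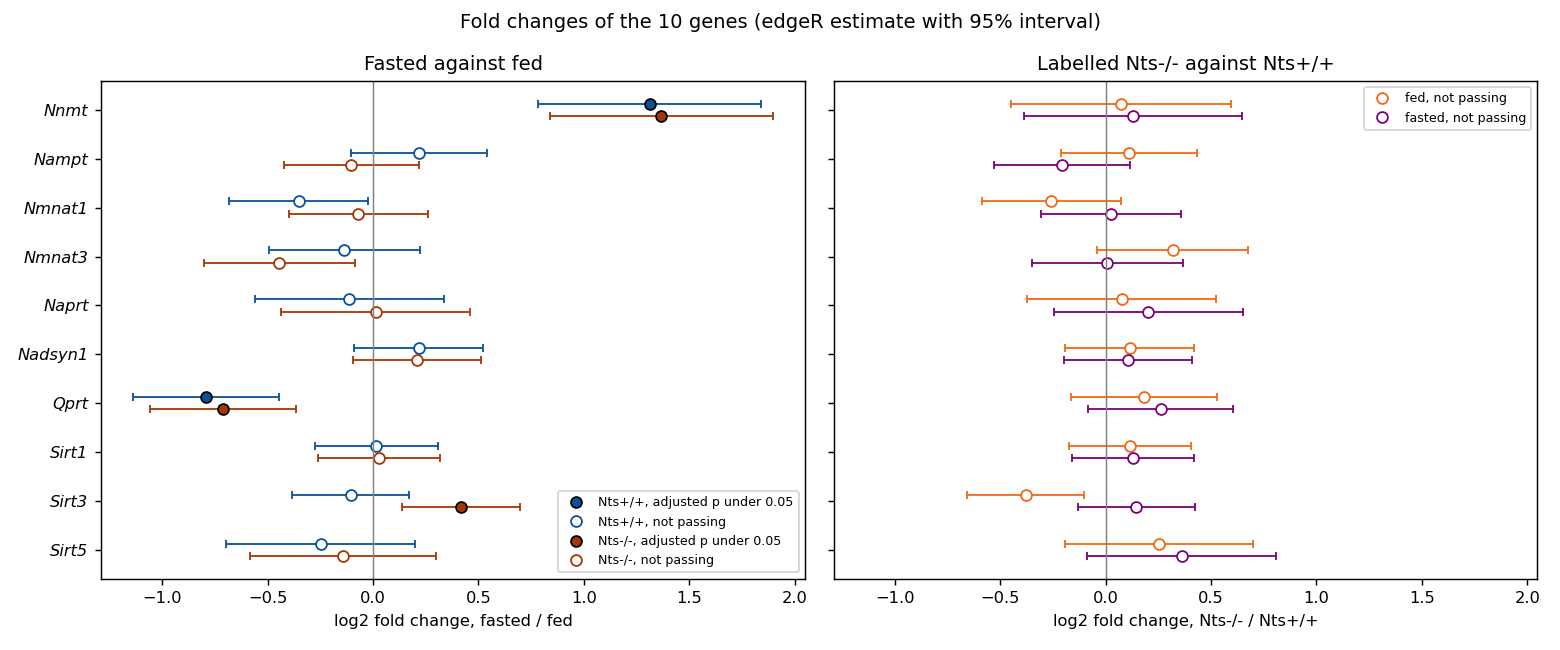
Log2 fold change of each of the 10 genes in the fasting and genotype comparisons, with bars for the 95% interval of the edgeR estimate and filled points where the adjusted p was under 0.05. Nnmt (1.31 and 1.37) and Qprt (-0.79 and -0.71) pass with fasting in both genotypes, and no gene passes between genotypes. Sirt3 (0.42) passes in Nts-/-, a call lost when any 1 of these mice was left out. Intervals of Nmnat1 in Nts+/+ and Nmnat3 in Nts-/- with fasting, and of Sirt3 between fed genotypes, exclude 0 without passing.

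Between genotype labels, 0 of the 10 genes passed in fed livers and 0 in fasted livers (edgeR), with 0% of all tested genes passing in either. At an unadjusted p under 0.05 there was 1 of the 10 in fed livers, Sirt3, and 0 in fasted livers, against 876 and 685 of all tested genes. DESeq2 called 12 genes of the whole table in fed and 4 in fasted livers, and none of the 10 among them. Sirt3 was 0.38 lower on the log2 scale in fed livers labelled Nts-/- (95% interval of the change -0.66 to -0.10, adjusted p = 0.734, edgeR) and differed by 0.14 in fasted livers (adjusted p = 0.924, edgeR). Nnmt differed by 0.07 in fed livers (95% interval -0.45 to 0.59) and by 0.13 in fasted livers (-0.39 to 0.65). Qprt differed by 0.18 in fed livers (-0.16 to 0.53) and by 0.26 in fasted livers (-0.08 to 0.61), and Nampt by 0.11 (-0.21 to 0.43) and -0.21 (-0.53 to 0.11). These intervals are for single genes and are not adjusted for the number of genes tested. With 3 mice a group, differences of any size within them remain possible. Nts counts were higher in the libraries labelled Nts-/-, and the direction of each difference rests on the labels as given.

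The response to fasting differed between genotypes for 0 of the 10 genes (edgeR), with 0% of all tested genes passing. At an unadjusted p under 0.05 there were 1 of the 10, again Sirt3, and 663 of all tested genes, and DESeq2 called 3 genes of the whole table. The difference was 0.06 for Nnmt (95% interval -0.68 to 0.79), 0.08 for Qprt (-0.41 to 0.57) and -0.32 for Nampt (-0.77 to 0.14). Nampt thus had the largest difference in size after Sirt3, and its adjusted p was 0.899 (edgeR).

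The rest of NAD metabolism was followed in a list of 47 genes, of which 41 passed the filter on low counts. Those that did not were Ido1, Nmrk2, Nmnat2, Slc12a8, Slc22a13 and Bst1. Over both genotypes 20 of the 41 passed with fasting, 6 higher and 14 lower, which is 48.8% against 32.8% of all tested genes. In Nts+/+ 12 passed (3 higher and 9 lower), which is 29.3% against 18.1% of all tested genes. In Nts-/- 11 passed (3 higher and 8 lower), which is 26.8% against 16.8%. Between genotype labels 0 passed in fed and 0 in fasted livers, with 1 and 0 at an unadjusted p under 0.05, and for the difference between responses 0 passed, with 0 at that level (edgeR). The list was described by these counts, without a test of the list as a whole.

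In the route from tryptophan, upstream of Qprt, 5 of 7 tested genes passed over both genotypes, 1 higher and 4 lower, beside 32.8% of all tested genes. Tdo2, which opens the tryptophan ring in hepatocytes, was at 887, 972 and 774 TMM-normalized CPM in fed and 2519, 1785 and 1574 in fasted Nts+/+ livers, and at 658, 774 and 1042 fed and 2043, 1921 and 1790 fasted in those labelled Nts-/-. All fasted mice lay above all fed mice, a change of 1.19 on the log2 scale (SE 0.14, adjusted p = 4.09e-05, edgeR). Haao, which makes the precursor of quinolinic acid and so stands directly before Qprt, was at 449, 436 and 385 fed and 229, 151 and 142 fasted in Nts+/+, and at 387, 452 and 406 fed and 189, 186 and 266 fasted in Nts-/-. Its ranges were also apart, in the opposite direction (-1.12, SE 0.14, adjusted p = 4.27e-05, edgeR). Acmsd, which diverts the same intermediate away from NAD to full oxidation, lay between 15.3 and 29.2 fed (median 19.4) and between 5.04 and 9.91 fasted (median 7.45). It fell by 1.46 (SE 0.21, adjusted p = 0.000313, edgeR), so that the enzymes on both sides of this branch, Qprt and Acmsd, were lower in fasted livers. Ido2, a second dioxygenase acting on tryptophan, fell by 1.12 (SE 0.16, adjusted p = 0.000191, edgeR), and Afmid, the formamidase that follows, fell by 0.87 (SE 0.19, adjusted p = 0.00379, edgeR). In between, Kmo (0.19, adjusted p = 0.262) and Kynu (0.29, adjusted p = 0.0656) did not pass (edgeR).

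**Figure D4:**
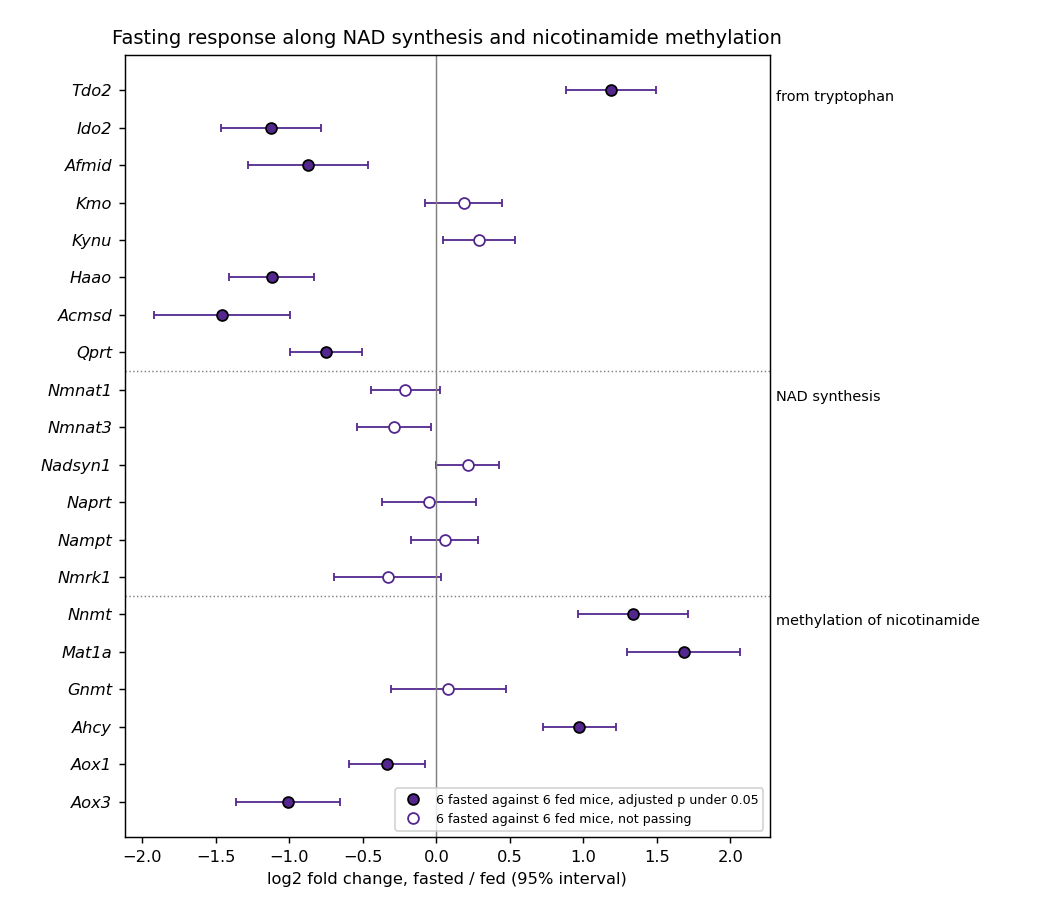
Log2 fold change with fasting over both genotypes for genes along the tryptophan route, the later steps of NAD synthesis and the methylation of nicotinamide, from top to bottom, with 95% intervals and filled points where the edgeR adjusted p was under 0.05. In the tryptophan route Tdo2 (1.19) stands above 0 while Haao (-1.12), Acmsd (-1.46) and Qprt (-0.75) stand below it.

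Around Nnmt, 4 of 5 genes of the methyl donor cycle and of methylnicotinamide oxidation passed, 2 higher and 2 lower, beside the same 32.8% of all tested genes. Mat1a, which makes the S-adenosylmethionine that Nnmt uses, lay between 2589 and 3729 TMM-normalized CPM fed (median 2919) and between 6227 and 13622 fasted (median 9231), a 3.21-fold rise (log2 1.68, SE 0.18, adjusted p = 1.65e-05, edgeR). Ahcy, which clears the S-adenosylhomocysteine left by methylation, lay between 1697 and 2366 fed and between 3118 and 4685 fasted, a 1.96-fold rise (log2 0.97, SE 0.12, adjusted p = 3.73e-05, edgeR). For both, the fed and fasted mice were apart, as they were for Nnmt. Aox3, an aldehyde oxidase that can oxidise the product of Nnmt, fell by 1.01 (SE 0.16, adjusted p = 0.000499, edgeR), from between 151 and 254 fed to between 67.0 and 123 fasted. Aox1 fell by 0.34 (adjusted p = 0.0459, edgeR), a call lost with RLE factors (0.0522), with no count filter (0.0538) and without any of mice 254, 257, 265, 282, 277, 319, 284 or 290 (0.0634 to 0.124). Gnmt, the methyltransferase of glycine, was at 0.08 (adjusted p = 0.768, edgeR).

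Of the other salvage enzymes, 1 of 3 passed over both genotypes, beside 32.8% of all tested genes. Pnp, the purine nucleoside phosphorylase, which also splits nicotinamide riboside, fell by 0.43 (SE 0.10, adjusted p = 0.0058, edgeR). Nmrk1, a kinase of nicotinamide riboside, was at -0.33 (adjusted p = 0.153, edgeR). Among 3 kinases and transporters, Slc25a51, the carrier of NAD into mitochondria, rose by 0.38 (SE 0.12, adjusted p = 0.0211, edgeR), a call lost without mouse 277 (0.0553) or 284 (0.0532). The other 4 sirtuins gave 0 higher and 2 lower, beside the same 32.8% of all tested genes. Sirt7, a nucleolar deacetylase, fell by 0.46 (SE 0.10, adjusted p = 0.00279, edgeR), from between 23.5 and 30.5 TMM-normalized CPM fed to between 16.9 and 21.8 fasted. Sirt4, a mitochondrial sirtuin, fell by 0.54 (SE 0.17, adjusted p = 0.0303, edgeR), a call lost without any of mice 254, 323, 265, 322, 277, 284 or 290 (adjusted p 0.0608 to 0.081). Sirt2 was at 0.08 and Sirt6 at -0.14.

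Nampt is known as a gene under control of the circadian clock, and the labels do not give the time of day at which livers were taken. Clock genes are therefore given beside it. Of 13 clock genes, 7 passed with fasting over both genotypes, 6 higher and 1 lower, beside 32.8% of all tested genes. Ciart rose by 3.14 (SE 0.44, adjusted p = 0.000154, edgeR), from 1 to 4 counts per fed mouse to 10 to 38 per fasted mouse, so its fold change is imprecise. Dbp, also low at 0.258 to 0.905 TMM-normalized CPM fed and 1.06 to 8.83 fasted, rose by 1.95 (SE 0.44, adjusted p = 0.00559, edgeR). Without fasted mouse 295 its change was 1.41. Among better counted genes, Tef rose by 0.96 (SE 0.18, adjusted p = 0.00157, edgeR) and Npas2 fell by 1.40 (SE 0.21, adjusted p = 0.000261, edgeR). Nr1d1, a repressor in the clock, did not pass, and its 3 fasted livers labelled Nts-/- were at 3.21, 27.5 and 57.1 TMM-normalized CPM in mice 284, 290 and 295, a spread within a single group. The part of the clock in the values of Nampt or of any other gene here was not tested.

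Over the 12 mice, the genes whose log2 CPM was most like that of Nnmt were Fh1 (Pearson r = 0.98), Mtx2 (0.975) and Tsnax (0.973). They rose with fasting by 1.06, 0.51 and 0.43 on the log2 scale, and the 12 points come from 2 feeding states. For Nampt the closest were Cdh4 (0.793), Spag4 (0.782) and Eif2ak3 (0.779), none of which passed with fasting (adjusted p = 0.305, 0.944 and 0.301, edgeR). Cdh4 and Spag4 are low, at 0.266 to 1.11 and 0.606 to 1.71 TMM-normalized CPM. These are the highest of 13812 correlations with each gene and are given as a description.

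Markers of the cells in the tissue were summed in each mouse on the same TMM-normalized CPM scale, and each tested marker was compared between fed and fasted mice over both genotypes. The counts of markers below stand beside 32.8% of all tested genes passing in this comparison. Hepatocyte markers were high in all 12 livers, with sums between 111876 and 141468 fed and between 122438 and 145819 fasted. Of the 8 single hepatocyte markers, 3 were higher (Apoa1 by 0.86, Apob by 0.68 and Cyp3a11 by 0.63 on the log2 scale) and 2 lower (Ttr fell by 0.76 and Serpina1c by 0.87). Stellate cell sums were apart, at 87.7 to 120 fed and 62.7 to 85.4 fasted, with 4 of 5 markers lower and 0 higher. Cholangiocyte sums were apart at 33.4 to 49.7 fed and 13.7 to 29.6 fasted, with 1 of 4 tested markers lower, Spp1. Sinusoidal endothelial sums were 126 to 187 fed and 107 to 131 fasted and overlapped, and its markers went both ways. There Clec4g fell by 1.11, Oit3 by 0.36 and Kdr by 0.32, while Lyve1 rose by 0.71. The sums overlapped for Kupffer cells (244 to 467 fed, 195 to 388 fasted, 1 of 5 markers lower), lymphocytes (13.8 to 16.5 fed, 9.58 to 22.5 fasted, 0 of 5 passing), neutrophils (1.77 to 9.19 fed, 2.61 to 5.28 fasted, 0 of 4 tested passing) and erythroid cells (266 to 627 fed, 233 to 600 fasted, 1 of 5 lower). Adipocyte sums were very low, at 0 to 0.0443 fed and 0.0472 to 0.26 fasted, and so just apart. Lep and Retn were at 0, and no adipocyte marker passed the filter on low counts. Skeletal muscle markers summed to at most 0.0403, with Acta1, Myh4 and Myl1 at 0. Pancreatic sums were apart at 7.49 to 13.3 fed and 2.66 to 5.45 fasted, with Cpa1, Pnlip and Ctrb1 at 0 and the single tested marker, Cela1, lower. No marker of any list passed between genotype labels. The sums of stellate cell, cholangiocyte and pancreatic markers, lower with fasting, and the very low adipocyte sum, higher with fasting, were thus apart. So were 15.9% of all tested genes, Nnmt and Qprt among them. The pancreatic sum was almost wholly Cela1, with Prss2 at most 0.0362. Most of the cholangiocyte sum was Spp1 (27.5 to 43.5 fed, 10.7 to 25.4 fasted), so these 2 sums each follow a single gene. The part of any cell type in the changes of Nnmt and Qprt was not tested.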

How the data were processed

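Liver RNA of 12 mice was sequenced, 3 in each of 4 groups set by genotype label and feeding state. The authors deposited expected counts per gene, which are estimates that need not be whole, and per the submitters' processing notes reads were trimmed with Trimmomatic and quantified with RSEM on GRCm38. Versions, annotation and strand setting are not given in the sources used here. Of 48795 genes, 1220 have no symbol.

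Expected counts were rounded. In R 4.3.3, edgeR 4.0.16 kept 13812 genes (filterByExpr), applied TMM factors and fitted 1 mean per group over all 12 mice with robust quasi-likelihood tests (two-sided). The Benjamini-Hochberg adjustment ran over the 13812 genes, and an adjusted p under 0.05 passed. The biological coefficient of variation was 0.202, and p values cover the spread between mice. SE is the absolute log2 fold change divided by the square root of F. CPM of genes and marker sums is TMM-normalized, while CPM of Nts and of the floor is scaled to the library total alone, and log2 CPM has a prior count of 2. TPM used the longest transcript in GENCODE vM39, found through Ensembl identifiers for 99.2% of genes tested. The floor of 3 counts lies between 0.0663 and 0.136 CPM by mouse and covers counting error only.

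The 10 genes, the lists of NAD, clock and cell type marker genes, the motifs and the tests were chosen with earlier results of these data known. Every one of the 10 genes was named, with at most the 4 genes of smallest p among those passing in each list (Afmid and those named as not passing were added after their values were seen), and the 3 genes most like Nnmt and Nampt. Naxd and Naxe stand in the table under older symbols. Alternatives were RLE and upper-quartile factors, DESeq2 1.42.0, fits without the count filter, with a minimum of 10 counts in each mouse or restricted to the groups compared, removal of the trend with transcript length, TMM-scaled CPM per kb, and leaving out each mouse. The steps were tested on simulated data.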

Additional observations from a re-analysis of the deposited data

How the results depend on the processing

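Nnmt and Qprt passed in every alternative run for the 3 fasting comparisons, Nnmt with a log2 fold change of 1.18 to 1.44 and Qprt with -0.85 to -0.70 over both genotypes. The count of the 10 genes that passed stayed at 2 with fasting in Nts+/+ and at 0 between genotypes and for the difference between responses. In Nts-/- it fell from 3 to 2 with no count filter and whenever 1 of these mice was left out. Over both genotypes it was 2, or 3 without Nts+/+ fed mouse 323. TMM-scaled CPM per kb uses the same counts and lengths as TPM, so the order of genes within a mouse could not change. That order does depend on the transcript length chosen. Without length, fed mice were at 153 to 208 TMM-normalized CPM for Qprt, 75.7 to 136 for Naprt and 71.2 to 112 for Nnmt. Fasted mice were at 164 to 314 for Nnmt, 79 to 129 for Naprt and 80.4 to 129 for Qprt, so only Nnmt stayed apart. The count over all genes varied when 1 mouse was left out, from 1224 (without Nts+/+ fasted mouse 282) to 2418 with fasting in Nts+/+, and from 1358 (without Nts-/- fed mouse 277) to 2631 in Nts-/-. Between genotypes in fed livers it was 1 with no count filter, 12 with DESeq2 and 0 to 2 leaving out 1 mouse, in fasted livers 1 with only the mice compared and 4 with DESeq2, and for the difference between responses 3 with DESeq2 and 0 to 1 leaving out 1 mouse. Of the scalings, upper-quartile factors moved the median of all genes furthest, by -0.0361. Each liver came from a different mouse. The mice were littermates, but the labels do not give the litter, so no analysis paired by litter was possible.

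Values near 0, none past the threshold, changed sign as follows. With upper-quartile factors the log2 fold change of Sirt1 was -0.026 in Nts+/+, -0.0019 in Nts-/- and -0.014 over both, and that of Naprt -0.022 in Nts-/-. With the length trend removed it was -0.012 for Naprt in Nts-/-, -0.00053 for Nmnat1 between genotypes in fasted livers, and 0.026 for Nadsyn1 and -0.032 for Nnmt in the difference between responses. Nadsyn1 was there at 0.0049 with at least 10 counts in every mouse and 0.0022 with DESeq2. Leaving out 1 mouse, the ranges in Nts+/+ fasting were -0.23 to 0.0098 for Nmnat3, -0.30 to 0.0041 for Naprt and -0.027 to 0.065 for Sirt1. In Nts-/- fasting they were -0.19 to 0.057 for Nampt, -0.14 to 0.066 for Nmnat1, -0.17 to 0.23 for Naprt and -0.024 to 0.13 for Sirt1. Over both genotypes they were -0.14 to 0.060 for Naprt and -0.0018 to 0.074 for Sirt1. Between genotypes they were in fed livers -0.042 to 0.24 for Nampt, -0.14 to 0.27 for Naprt and -0.069 to 0.27 for Nnmt, and in fasted livers -0.048 to 0.12 for Nmnat1, -0.048 to 0.049 for Nmnat3 and -0.049 to 0.45 for Nnmt. For the difference between responses they were -0.11 to 0.10 for Nadsyn1, -0.061 to 0.34 for Naprt, -0.024 to 0.27 for Qprt, -0.14 to 0.38 for Nnmt, -0.052 to 0.11 for Sirt1 and -0.13 to 0.32 for Sirt5. The cause was not tested. Depth limits the lowest genes most, such as Nmnat3 with 106 to 246 counts per mouse.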

Other observations

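Among the other enzymes that consume NAD, 5 of 14 tested passed with fasting over both genotypes, 1 higher and 4 lower, which is close to the 32.8% of all tested genes that passed in this comparison. Parp14, a mono-ADP-ribosyltransferase, fell by 0.88 on the log2 scale (SE 0.12, adjusted p = 0.000108, edgeR), from between 26.5 and 44.0 TMM-normalized CPM fed (median 36.2) to between 16.9 and 22.5 fasted (median 20.0), and its fed and fasted mice did not overlap. Parp3, which acts in DNA break repair, fell by 0.62 (SE 0.14, adjusted p = 0.00351, edgeR), and Parp1, the main poly-ADP-ribose polymerase of the nucleus, fell by 0.28 (SE 0.08, adjusted p = 0.0126, edgeR). Parp16, an enzyme of the endoplasmic reticulum, rose by 0.56 (SE 0.16, adjusted p = 0.0149, edgeR). Cd38, which cleaves NAD at the cell surface, was at 0.01 (adjusted p = 0.98, edgeR).

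Of 5 genes for repair and turnover of the cofactor, 1 was higher and 1 lower over both genotypes, beside 32.8% of all tested genes passing. Nudt12, which hydrolyses NADH and NAD, rose by 0.41 (SE 0.11, adjusted p = 0.00997, edgeR), with fed mice between 39.2 and 59.8 TMM-normalized CPM and fasted mice between 63.3 and 70.3. Nudt13, a mitochondrial relative of it, fell by 0.54 (SE 0.12, adjusted p = 0.0044, edgeR), while Naxd, Naxe and Nnt did not pass (-0.05, -0.09 and 0.25).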
